A study of Mus musculus with 7 samples.

Results

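Srsf3 binding was examined on the transcripts of the vesicle coat and secretory machinery: the clathrin chains, their adaptor complexes and endocytic accessory proteins, the COPI and COPII coats, the translocon, the syntaxin SNAREs and the Sec14-like proteins. Genes were chosen by name alone, from the families Clt, Ap1 to Ap5, Picalm, Epn, Itsn, Dnm, Synj, Cop, Stx and Sec followed by digits. Of 5368 genes with a peak in either condition, 49 belonged to this set. They carried 60 of 6396 distinct peaks in the absence of ligand (-PDGF-AA) and 82 of 8384 distinct peaks after stimulation (+PDGF-AA).

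The study used enhanced UV-crosslinking and immunoprecipitation (eCLIP), in which RNA crosslinked to a protein is recovered with an antibody and sequenced. The cells were immortalized mouse embryonic palatal mesenchyme (iMEPM) cells, a line derived from a male Cdkn2a-/- embryo, serum starved and then either untreated or stimulated for 1 h with 10 ng/mL PDGF-AA, which activates the receptor PDGFRα. The labels list 7 libraries: 2 untreated Srsf3 immunoprecipitations, 1 PDGF-AA-treated Srsf3 immunoprecipitation titled replicate 2, and 1 input and 1 IgG library of each condition, which were not analysed here on their own. Peaks were called once per condition and deposited as intervals without scores or counts, so the depth behind a peak is unknown, the lists have no replicates, and none of the differences below could be tested. A peak needs both RNA and binding, and in these lists the abundance of a transcript and its binding by Srsf3 cannot be told apart.

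Coats are protein lattices that bend a membrane into a vesicle and select its cargo. Clathrin, joined to the membrane by AP adaptors, acts at the plasma membrane, the trans-Golgi network and endosomes, COPII carries cargo out of the endoplasmic reticulum, and COPI returns it from the Golgi. Dynamin cuts clathrin vesicles from the membrane, synaptojanin strips them of adaptors by removing phosphates from inositol lipids, and SNAREs fuse them with their target. Activated growth factor receptors such as PDGFRα enter cells through these vesicles.

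The sequences of the sites that carry the results are given first, as read from the GRCm39 genome on the transcript strand, 5′ to 3′, at the deposited coordinates. The first set holds, for all but 1 of the groups of genes that had one, the widest site shared by both lists, together with the site richest in GA hexamers, which are in capitals. These hexamers were AGAAGA, then GAAGAA, which is the same repeat read from the next base, and AAGAAG, which is the repeat read from the base after that, and they were searched on the transcript strand. These were exon 6 of Cope (chr8:70761146-70761227, plus strand), exon 4 of Stx16 (chr2:173933340-173933416, plus strand), exon 24 of Ap3d1 (chr10:80546563-80546667, minus strand), exon 13 of Itsn2 (chr12:4684660-4684798, plus strand), the coding part of exon 21 of Sec63 (chr10:42704933-42705030, plus strand) and exon 21 of Ap3d1 (chr10:80548606-80548683, minus strand).
Cope exon 6, identical in both lists: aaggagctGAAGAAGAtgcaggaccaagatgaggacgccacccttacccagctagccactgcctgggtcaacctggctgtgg
Stx16 exon 4, +PDGF-AA: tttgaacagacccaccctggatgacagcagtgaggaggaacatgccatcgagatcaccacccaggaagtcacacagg
Ap3d1 exon 24, +PDGF-AA: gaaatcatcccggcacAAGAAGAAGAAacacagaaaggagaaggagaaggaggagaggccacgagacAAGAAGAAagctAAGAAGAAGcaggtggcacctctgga
Itsn2 exon 13, -PDGF-AA: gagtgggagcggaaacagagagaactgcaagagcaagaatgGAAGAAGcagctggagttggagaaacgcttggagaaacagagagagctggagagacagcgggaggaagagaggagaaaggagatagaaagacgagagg
Sec63 exon 21, +PDGF-AA: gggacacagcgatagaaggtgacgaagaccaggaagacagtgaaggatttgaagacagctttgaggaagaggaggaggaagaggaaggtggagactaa
Ap3d1 exon 21, -PDGF-AA: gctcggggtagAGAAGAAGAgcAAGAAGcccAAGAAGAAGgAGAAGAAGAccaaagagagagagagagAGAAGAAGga

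The next set holds intronic sites of the -PDGF-AA list that lie on tandem CA repeats, with the longest uninterrupted run in capitals. They lay in intron 26 of Synj2 (chr17:6086539-6086594, plus strand), intron 23 of Sec24d (chr3:123158238-123158333, plus strand) and intron 3 of Stx8 (chr11:67871339-67871425, plus strand).
Synj2 intron 26, -PDGF-AA: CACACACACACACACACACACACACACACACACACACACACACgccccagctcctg
Sec24d intron 23, -PDGF-AA: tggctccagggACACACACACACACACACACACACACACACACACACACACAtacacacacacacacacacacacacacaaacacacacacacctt
Stx8 intron 3, -PDGF-AA: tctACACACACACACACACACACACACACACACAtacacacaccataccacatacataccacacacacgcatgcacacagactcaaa

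The following sites, also of the -PDGF-AA list, ran from an exon over its 5′ splice site, and the intronic part is in capitals. They lay at exons 6 (chr16:20359848-20359903) and 8 (chr16:20360591-20360643) of Ap2m1 and at exon 11 of Copg1 (chr6:87872729-87872772), all on the plus strand, and were chosen after their positions had been seen.
Ap2m1 exon 6, -PDGF-AA: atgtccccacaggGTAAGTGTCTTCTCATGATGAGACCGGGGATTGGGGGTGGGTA
Ap2m1 exon 8, -PDGF-AA: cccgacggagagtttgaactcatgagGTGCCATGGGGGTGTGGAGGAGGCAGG
Copg1 exon 11, -PDGF-AA: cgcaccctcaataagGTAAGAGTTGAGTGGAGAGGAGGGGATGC

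The intronic part opened with GT in each of these sites, as introns do, and it was 43 nt of the Ap2m1 exon 6 peak, 27 nt of the Ap2m1 exon 8 peak and 29 nt of the Copg1 peak.

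Of 94 protein-coding genes in the annotation (GENCODE M39) that fit the naming rule, 49 (52.1%, Wilson 95% interval 42.1 to 61.9%) had a peak in at least 1 list, beside 24.3% of all 21770 protein-coding genes. Among the 49, a peak was present in both lists for 35 genes (71.4%), against 50.4% of all bound genes. The -PDGF-AA list alone held peaks of 4 genes, Ap1g1, Epn1, Sec14l1 and Sec23a, each with 1 peak. The +PDGF-AA list alone held peaks of 10 genes, which were Ap1m1, Ap4m1, Ap5z1, Clta, Cltb, Epn2, Picalm and Sec23ip with 1 peak each, and Sec62 and Stx2 with 2 each. More peaks in the +PDGF-AA list were found for 23 genes (46.9%, beside 50.6% of all bound genes), more in the -PDGF-AA list for 9 (18.4%, beside 26.7%), and the same number for 17 (34.7%, beside the remainder of all bound genes). The ratio of peak numbers between the lists was 1.37 for these genes and 1.31 for all genes, so the higher number after ligand was shared with the whole list.

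The region under the peaks differed between the lists. In the -PDGF-AA list 35 of the 60 peaks lay in coding sequence (58.3%, interval 45.7 to 69.9%) and 20 in introns (33.3%, 22.7 to 45.9%), with 3 in 5′ UTRs, 1 in a 3′ UTR and 1 over a non-coding exon. In the +PDGF-AA list 75 of 82 lay in coding sequence (91.5%, 83.4 to 95.8%) and 5 in introns (6.1%, 2.63 to 13.5%), with 1 peak in each UTR. Over all peaks of protein-coding genes the coding share was 54.8% without and 81.9% with ligand, and the intronic share was 36.3% and 11.9%. The coat genes thus followed the direction of the whole lists. Their +PDGF-AA coding share was higher than that of the whole list, whose value was outside their interval. That interval treats peaks of the same gene as independent, so the difference is a description and was not tested.

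**Figure D1:**
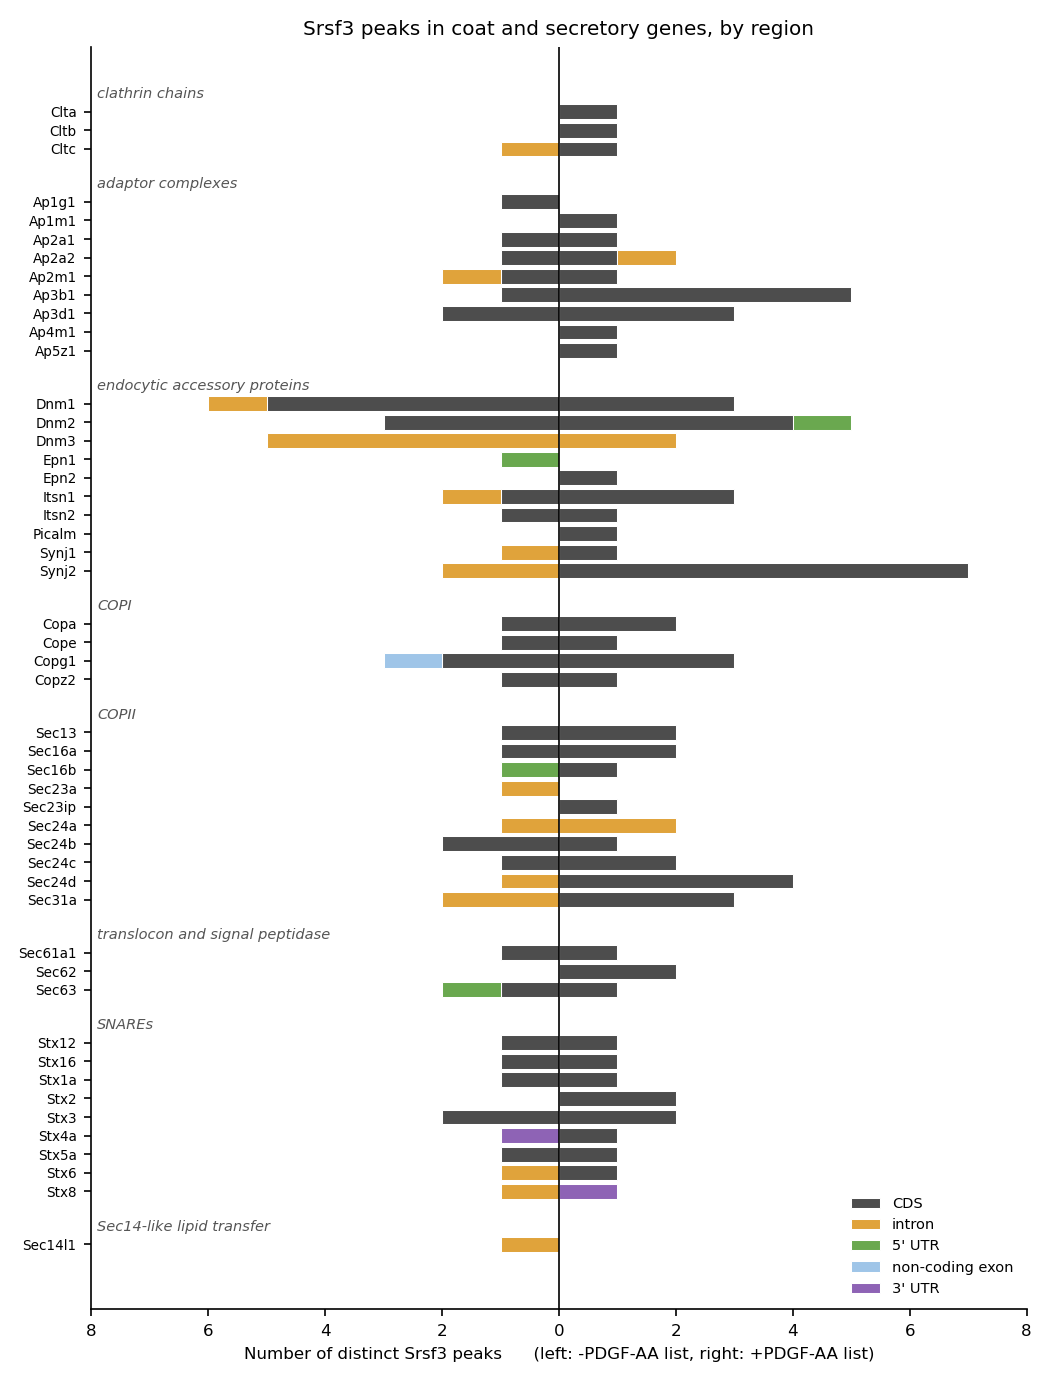
Number of distinct Srsf3 peaks in each of the 49 genes, with the -PDGF-AA list to the left of 0 and the +PDGF-AA list to the right, coloured by the region that held most of the peak. Synj2 reached 7 peaks in the +PDGF-AA list, all in coding sequence, while both of its -PDGF-AA peaks and all 7 peaks of Dnm3 were intronic.

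Within single genes, the lists could also be set side by side. In 6 of the 35 genes bound in both lists (17.1%), every -PDGF-AA peak was intronic and every +PDGF-AA peak was in coding sequence: Cltc, Sec24d, Sec31a, Stx6, Synj1 and Synj2. The background was 11.2% of the 2708 genes bound in both lists. The opposite arrangement was found in 0 coat genes and in 11 of the 2708 (0.406%). One of the 6, Stx6, depended on its boundary, since its -PDGF-AA peak of 47 nt held 24 nt of intron and the rest of exon 5. With intervals moved back by 1 nt that peak counted as coding, and Stx6 would then leave the 6.

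A site was counted as shared when it overlapped a peak of the other list by at least 1 nt on the same strand. Of the -PDGF-AA peaks 23 of 60 were shared (38.3%, interval 27.1 to 51%), beside 38.8% of the whole list, and of the +PDGF-AA peaks 24 of 82 (29.3%, 20.5 to 39.9%), beside 29.6%. By region, 21 of 35 coding peaks (60%) and 2 of 20 intronic peaks (10%) of the -PDGF-AA list were shared, beside 57.5% and 14.6% of all such peaks. In the +PDGF-AA list the coding share was not the higher one, with 22 of 75 coding peaks (29.3%) and 2 of 5 intronic peaks (40%) shared, beside 29.3% and 33.9% of all. Of the 35 genes bound in both lists 20 (57.1%) had a site in common, beside 60.8% of all such genes. The other 15 genes, Ap2a1, Ap2m1, Cltc, Copa, Itsn1, Sec16a, Sec16b, Sec24d, Sec31a, Stx12, Stx4a, Stx6, Stx8, Synj1 and Synj2, were bound in both lists at different places.

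**Figure D2:**
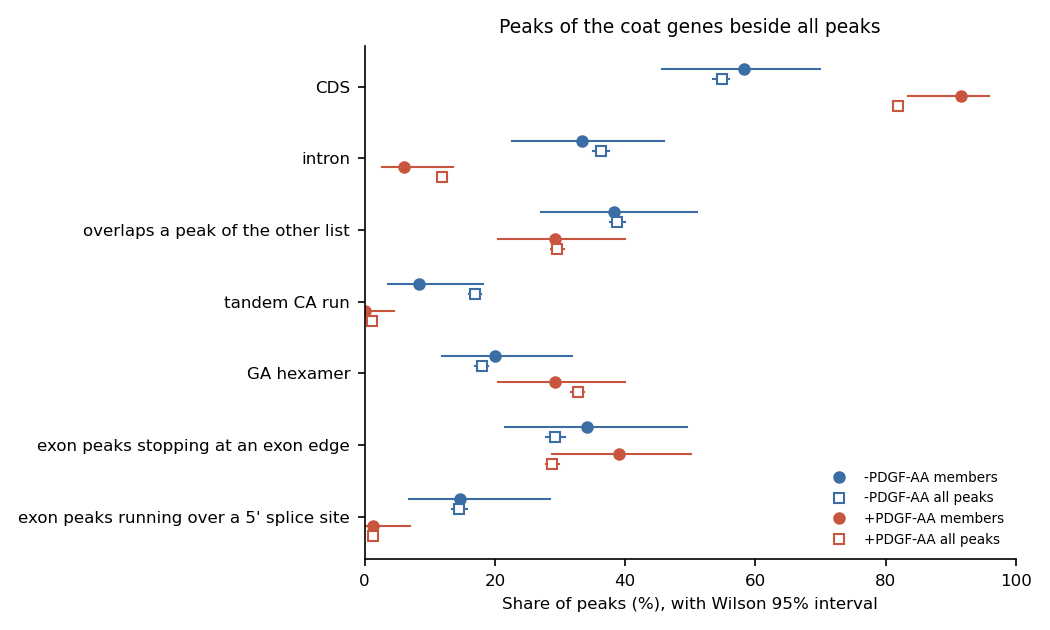
Share of peaks in percent, with Wilson 95% intervals, for the coat genes (circles) and for all peaks, coat genes included (squares), in the -PDGF-AA list (blue) and the +PDGF-AA list (red). The CDS share was 58.3% and 91.5% for the coat genes, and the shares that overlapped the other list were 38.3% and 29.3%, close to those of all peaks.

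Among the clathrin chains, which form the legged units of the lattice, all 3 genes were bound. The heavy chain gene Cltc had 1 peak in each list, in intron 1 without ligand (chr11:86629059-86629103, minus strand) and in exon 6 with ligand (chr11:86621032-86621098). The light chain genes Clta and Cltb, whose products bind along the heavy chain, had 1 peak each, with ligand. Both lay in exon 4, which is 112 nt long in both genes.

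Of 28 annotated adaptor genes 9 were bound, with 8 peaks without ligand and 15 with ligand. AP-3, the adaptor for traffic from endosomes to lysosomes and related organelles, accounted for 3 and 8 of these. Ap3b1, its β subunit, had 1 peak without ligand, in exon 19, and 5 with ligand, in exons 1, 2, 8, 18 and 19, of which the one in exon 19 was shared over 70 nt. Ap3d1, its δ subunit, was bound in exons 21 and 24 in both lists, and these were the GA-rich sites shown above, with 16 and 13 overlapping GA hexamers in the -PDGF-AA peaks. In the +PDGF-AA list the exon 21 site was split into peaks of 15 and 69 nt that were 1 nt apart.

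AP-2, the adaptor of clathrin at the plasma membrane, was bound in 3 of its subunit genes. Ap2m1, the μ subunit that reads tyrosine motifs in receptor tails, had 2 peaks without ligand, over the 5′ splice sites of exons 6 and 8, and 1 with ligand, at the start of exon 11. Ap2a2, an α subunit, had a shared site in exon 15 with 8 GA hexamers in each list, and a further +PDGF-AA peak in intron 3. Ap2a1, the other α subunit, was bound in exon 14 in both lists at places that did not overlap, at the 5′ splice site without ligand and at the start of the exon with ligand. The β subunit genes of AP-1 and AP-2, Ap1b1 and Ap2b1, had no peak, and Ap1g1, Ap1m1, Ap4m1 and Ap5z1 had 1 coding peak each in 1 list.

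The endocytic accessory proteins had the largest numbers of peaks of any group here, 21 without ligand and 24 with ligand, over 10 of 12 genes. Synj2, a synaptojanin, showed the widest difference of any gene of the set, with 2 peaks without ligand and 7 with ligand. Its -PDGF-AA peaks lay in introns 3 and 26, on CA runs of 11 and 43 nt. Its +PDGF-AA peaks lay in exons 11, 17, 21, 24 and 25, and at a pair of places in exon 27, the last exon. Synj1, its paralog, had a -PDGF-AA peak in intron 12 on a CA run of 23 nt and a +PDGF-AA peak in exon 24.

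The dynamins, the GTPases that cut the neck of the vesicle, differed in direction. Dnm2, the form expressed in most tissues, had 3 peaks without ligand, in exons 11, 15 and 22, and 5 with ligand, in exons 7, 11, 18 and 19 and in the 5′ UTR. Only the site in exon 11 was shared. Dnm1, best known from neurons, had 6 peaks without ligand, in exons 7, 14 and 16, at a pair of places in exon 12, and in intron 16, and 3 with ligand, in exons 7, 14 and 21. Its sites in exons 7 and 14 were shared.

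Dnm3, the remaining dynamin, had 5 -PDGF-AA peaks and 2 +PDGF-AA peaks, all within introns. The one in intron 17 (chr1:161867239-161867300, minus strand), of the -PDGF-AA list, lay on a tandem TG repeat. The other 6 of the 7 fell within intron 14 opposite exons of Dnm3os, a long non-coding RNA transcribed from the other strand (chr1:162045192-162053119, plus strand) that is the precursor of miR-199a and miR-214. A -PDGF-AA peak (chr1:162045476-162045513) and a +PDGF-AA peak (chr1:162045312-162045413) covered 17 and 31 nt of the Mir199a-2 hairpin (chr1:162045383-162045492), on the strand opposite to it. Neither list held a peak on the strand of Dnm3os. An exon on the opposite strand lay under 5 of 60 -PDGF-AA peaks and 4 of 82 +PDGF-AA peaks of the set (8.33% and 4.88%), beside 6.72% and 8.49% of all peaks. Whether RNA of Dnm3os had a part in the Dnm3 peaks was not tested.

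The remaining accessory genes were the intersectins, scaffolds that join dynamin to the coat, the epsins, which bend the membrane, and Picalm, a clathrin assembly protein. Itsn1 had 2 -PDGF-AA peaks, in intron 5 on a CA run of 22 nt and in exon 17, and 3 +PDGF-AA peaks, in exons 11, 12 and 18. Itsn2 had 1 peak in each list, both in exon 13 and shared over 112 nt, and these were the widest peaks of the set at 139 and 129 nt. Epn1 had 1 -PDGF-AA peak, in the 5′ UTR, and Epn2 and Picalm had 1 coding peak each in the +PDGF-AA list.

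**Figure D3:**
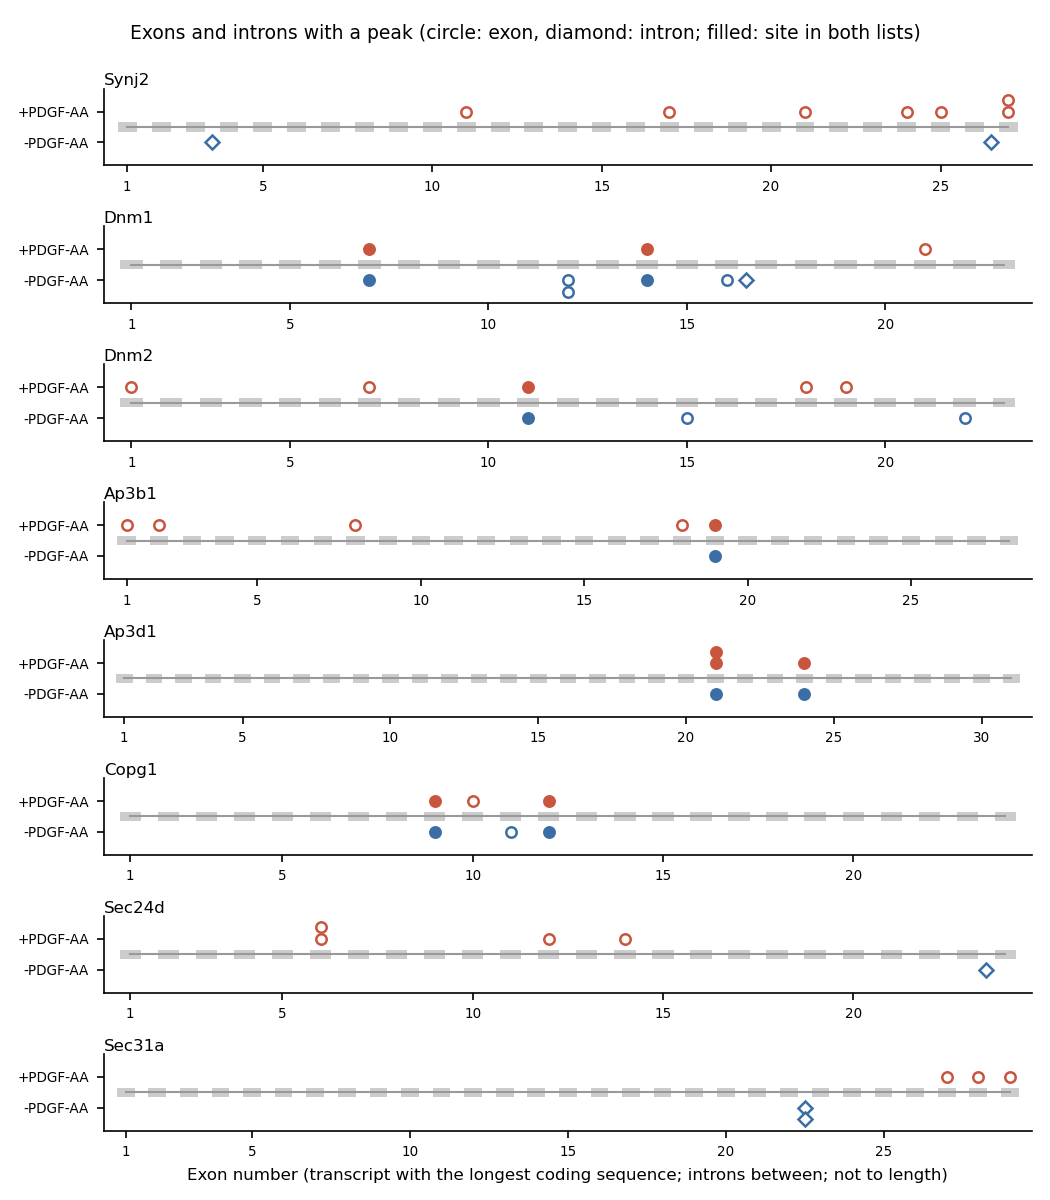
Exons (grey boxes, by number, not to length) and peaks of 8 genes, with the -PDGF-AA list below the line in blue and the +PDGF-AA list above it in red. Circles are peaks in exons, diamonds are peaks in introns, and filled symbols are sites that overlapped a peak of the other list. Ap3d1 kept both of its sites, whereas none of the 9 peaks of Synj2 overlapped.

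COPI was bound in 4 of 8 annotated genes, each in both lists, with 6 and 7 peaks. Cope, the ε subunit, had 1 peak in each list with identical coordinates, the only such pair of the set. It spanned the 82 nt of exon 6, displaced by 1 nt in the deposited coordinates. That exon is left out of 7 annotated coding transcripts. Copg1, a γ subunit, had 3 peaks in each list, with shared sites in exons 9 and 12, a -PDGF-AA peak over the 5′ splice site of exon 11 and a +PDGF-AA peak at the start of exon 10. Copz2, a ζ subunit, had a shared site in exon 6, and Copa, the α subunit, was bound in exon 32 without ligand and in exons 8 and 25 with ligand. Copb1, Copb2, Copg2 and Copz1 had no peak.

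COPII was bound in 10 of 12 genes, with 11 peaks without ligand and 18 with ligand. More peaks with ligand were found for 7 of the 10 genes and more without for 2, beside 50.6% and 26.7% of all bound genes. Sec24 proteins are the cargo-binding subunits of the coat, and all 4 were bound. Sec24d had 1 peak without ligand, in intron 23 on a CA run of 41 nt, and 4 with ligand, in exons 12 and 14 and at a pair of places 1 nt apart in exon 6. Sec24b had coding peaks in exons 3 and 21 without ligand and in exon 3 with ligand, and Sec24c in exon 22 in both lists and in exon 23 with ligand.

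Sec31a, which with Sec13 forms the outer cage, had 2 -PDGF-AA peaks side by side in intron 22 on CA-rich sequence with runs of 8 and 9 nt, and 3 +PDGF-AA peaks in the last exons, 27, 28 and 29. Sec13 was bound in exon 6 in both lists and in exon 7 with ligand. Sec16a, a scaffold of endoplasmic reticulum exit sites, had 1 peak without ligand in exon 22 and 2 with ligand in exons 2 and 6. Its paralog Sec16b had a 5′ UTR peak without ligand and a coding peak in exon 6 with ligand. Sec23a, the GTPase-activating subunit, had 1 peak, without ligand, with 24 of 41 nt in the intron after exon 16, and Sec23ip, a Sec23-interacting protein, had 1 with ligand.

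Of the translocon and signal peptidase genes, which pass proteins into the endoplasmic reticulum and trim them, 3 of 8 were bound. Sec61a1, the channel itself, had a shared site in exon 9. Sec62 had 2 +PDGF-AA peaks in its last exon. Sec63, its partner, had a shared site at the end of its coding sequence and a further -PDGF-AA peak in the 5′ UTR. Both signal peptidase genes of the rule, Sec11a and Sec11c, had no peak.

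Of 18 SNARE genes 9 were bound, with 9 and 11 peaks, and 8 of the 9 had the same number of peaks in both lists. Equal numbers were found for 34.7% of the bound genes of the whole set. Of all bound genes, 50.6% had more peaks with ligand, 26.7% more without, and the remainder equal numbers. The exception among the SNARE genes was Stx2, with 2 +PDGF-AA peaks in exons 3 and 5 and none without ligand. Stx3 had 2 peaks in each list, sharing the one in exon 6. The sites of Stx16, Stx1a and Stx5a were shared, while those of Stx12 lay in different exons. Stx8 had an intronic peak on a CA run of 31 nt without ligand and a 3′ UTR peak with ligand. The Stx4a peak lay in a 3′ UTR of other transcripts, within intron 9 of the one with the longest coding sequence, without ligand. With ligand its peak spanned the 111 nt of exon 9, displaced by 1 nt in the deposited coordinates. The Stx6 peak lay at the 5′ splice site of exon 5 without ligand and in exon 2 with ligand. Sec14l1, a Sec14-like lipid transfer protein, was the only one of 5 such genes to be bound, at 1 intronic -PDGF-AA site with a CA run of 11 nt.

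Tandem CA runs of at least 12 nt lay under 5 of 60 -PDGF-AA peaks (8.33%, interval 3.61 to 18.1%), in Synj2, Sec24d, Stx8, Synj1 and Itsn1, all within introns. The share over all -PDGF-AA peaks was 16.9%. In the +PDGF-AA list they lay under 0 of 82 peaks (Wilson upper limit 4.48%, or 3.66% if a count of 0 is taken to allow 3 counts), beside 1.18% of all peaks, and the longest run there was 6 nt. CA runs were sought on the transcript strand alone, so the TG repeat under the -PDGF-AA peak in intron 17 of Dnm3 was not counted. A GA hexamer lay in 12 of 60 -PDGF-AA peaks (20%, beside 18% of all peaks) and 24 of 82 +PDGF-AA peaks (29.3%, beside 32.7%). The hexamer GAAGCG, which the paper also lists among the most enriched with ligand, was counted apart from these. It lay in 1 of 60 -PDGF-AA peaks (1.67%, beside 1.94%) and 3 of 82 +PDGF-AA peaks (3.66%, beside 3.46%). Because the study picked these hexamers in the libraries examined here, their shares are a description and no separate support for a binding preference.

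**Figure D4:**
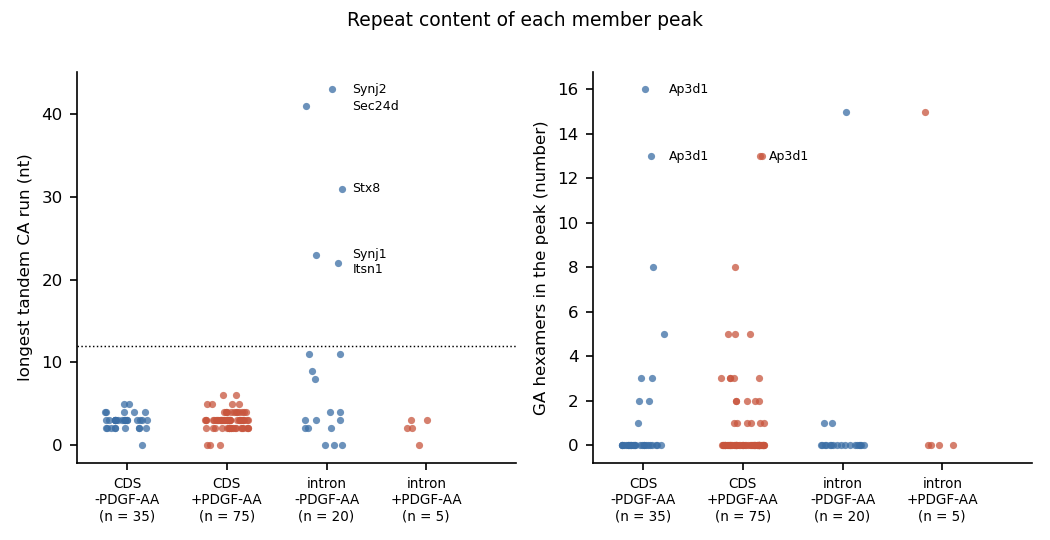
Longest tandem CA run in nt (left) and number of overlapping GA hexamers (right) in each coding or intronic peak, 1 point per peak with horizontal jitter, -PDGF-AA in blue and +PDGF-AA in red. The dotted line marks 12 nt, and the 5 runs above it, of 22 to 43 nt, were all in -PDGF-AA intronic peaks. Ap3d1, with 16 and 13 GA hexamers in its -PDGF-AA peaks, was among the highest in both lists.

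Many peaks stopped exactly where an exon stopped, once the displacement of 1 nt in the deposited coordinates was allowed for. Of peaks on exons, 14 of 41 in the -PDGF-AA list (34.1%, interval 21.6 to 49.5%) and 30 of 77 in the +PDGF-AA list (39%, 28.8 to 50.1%) stopped at an inner exon edge, beside 29.2% and 28.8% of all exon peaks. In the +PDGF-AA list 6 genes had a peak on each side of 1 junction, stopping at the splice sites of both exons: Ap3b1 (exons 1 and 2), Copg1 (9 and 10), Itsn1 (11 and 12), Sec13 (6 and 7), Sec24c (22 and 23) and Sec31a (27 and 28). Such pairs abut in the spliced transcript, where their joined widths were 63 to 101 nt, although the introns between them were 87 to 31560 nt long. No coat gene had such a pair among the 41 exon peaks of the -PDGF-AA list, against 6 pairs over 77 exon peaks in the +PDGF-AA list. All genes together had 219 pairs over 3847 exon peaks without ligand and 527 pairs over 7037 with ligand. Per exon peak, the +PDGF-AA count of the coat genes was thus close to that of all genes. For Copg1 (chr6:87870881-87870935 and chr6:87871024-87871049, plus strand) and Sec31a (chr5:100511688-100511744 and chr5:100511270-100511307, minus strand), the exonic bases of both peaks are given, with the second exon in capitals. The displacement was not corrected in these sequences. The first base of Copg1 exon 10 and the last base of Sec31a exon 27 are therefore missing at the printed junctions.
Copg1 exon 9, +PDGF-AA: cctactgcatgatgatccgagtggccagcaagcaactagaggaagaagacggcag
Copg1 exon 10, +PDGF-AA: CGTGACAGCCCGCTGTTTGACTTCAT
Sec31a exon 27, +PDGF-AA: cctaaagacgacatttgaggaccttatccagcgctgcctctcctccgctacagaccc
Sec31a exon 28, +PDGF-AA: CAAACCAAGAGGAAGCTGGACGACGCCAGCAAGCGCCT

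The reverse pattern, a peak that ran 5 nt or more past a 5′ splice site into the intron, was found in 6 of 41 -PDGF-AA exon peaks (14.6%, interval 6.88 to 28.4%), beside 14.5% of all. They lay at Ap2m1 exons 6 and 8, Copg1 exon 11, Stx6 exon 5, Sec23a exon 16 and Ap2a1 exon 14 and reached 23 to 43 nt into the intron. Distances past the splice site were taken in the deposited coordinates, without correction for their displacement. In the +PDGF-AA list 1 of 77 did so (1.3%, 0.23 to 7%), beside 1.31% of all, at exon 6 of Cltc and by 5 nt. Of these sites, 0 of 6 and 0 of 1 were shared, beside 25.8% and 57.6% of all peaks that ran over a 5′ splice site in the respective list. In both lists the share in the coat genes lay close to that of all exon peaks.

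**Figure D5:**
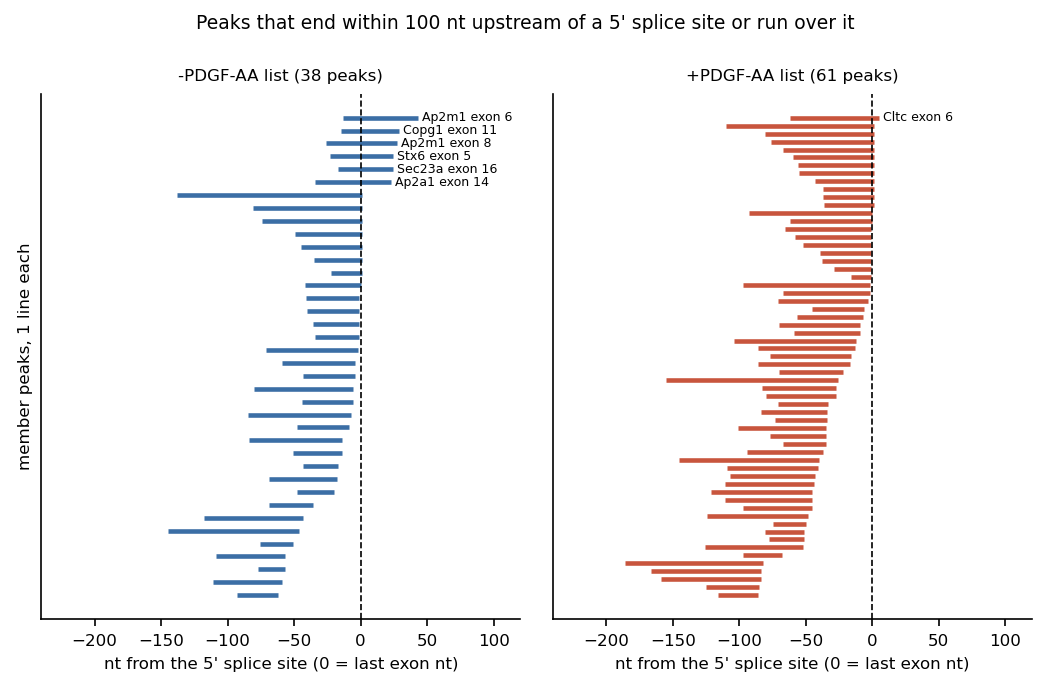
Each line is a coat gene peak that ended within 100 nt upstream of a 5′ splice site or ran over it, placed by its distance in nt from the last base of the exon (dashed line at 0), for the -PDGF-AA list (left) and the +PDGF-AA list (right). The 6 named -PDGF-AA peaks extended 23 to 43 nt into the intron, and the farthest +PDGF-AA peak extended 5 nt.

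Internal coding exons of the bound genes had a median GC content of 53.5% where bound without ligand (37 exons), 53.6% where bound with ligand (65) and 50% where unbound (757), and median lengths of 136, 134 and 114 nt. Over all bound genes the GC medians were 55.8%, 54.7% and 50.9%. An annotated coding transcript skipped 31 of the 81 exons bound in either list (38.3%) and 277 of the 757 unbound ones (36.6%), while over all bound genes these shares were 25.5% and 28.7%. Exons of 1 gene are not replicates, and these medians and shares are descriptions.

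Several peaks fell in corresponding exons of paralogs. Coding exons were aligned for a chosen set of bound paralogs: the light chains, dynamins, synaptojanins, intersectins, epsins, AP-2 α subunits, Sec24, Sec16, and Stx1a, Stx2, Stx3 and Stx4a. Other bound paralogs, such as the μ subunits Ap1m1, Ap2m1 and Ap4m1, were not aligned. In all, 218 pairs of exons, from 17 pairs of genes, were each other's best match with at least 55% identity. In 9 pairs both exons were bound, in 36 only 1 and in 173 neither, counting an exon as bound with a peak in either list. Each pair has 2 sides, and an exon of a larger family can enter more than 1 pair. Of all 436 sides, 54 were bound (12.4%), and of the partners of those 54, 18 were bound (33.3%). The same shares were not computed for paralogs outside this set. In 8 of the 9 pairs both exons were bound in the same list, the exception being Stx2 exon 5, bound with ligand, and Stx3 exon 7, bound without. The pairs were Clta exon 4 and Cltb exon 4 (60.7% identity), exons 7, 12 and 14 of Dnm1 with exons 7, 11 and 15 of Dnm2 (86%, 75.9% and 73.1%), Itsn1 exon 12 and Itsn2 exon 13 (70.3%), Ap2a1 exon 14 and Ap2a2 exon 15 (67.2%), and Stx1a exon 6 with Stx2 exon 5 and Stx3 exon 7, which also matched each other. With the lists pooled, the peaks overlapped in the alignment in 8 of the 9 pairs, the intersectin pair being the exception. The longest identical run within these 9 pairs was 21 nt, and whether reads were shared between paralogs was not tested. The light chain and dynamin peaks of the +PDGF-AA list are given with aligned identical bases that lay under both peaks in capitals (Clta chr4:44025491-44025551, plus strand; Cltb chr13:54746569-54746618, minus strand; Dnm1 chr2:32226198-32226262, minus strand; Dnm2 chr9:21385867-21385958, plus strand).
Clta exon 4, +PDGF-AA: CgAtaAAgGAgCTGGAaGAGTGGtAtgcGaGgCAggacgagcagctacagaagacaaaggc
Cltb exon 4, +PDGF-AA: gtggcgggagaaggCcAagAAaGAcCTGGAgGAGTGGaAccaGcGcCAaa
Dnm1 exon 7, +PDGF-AA: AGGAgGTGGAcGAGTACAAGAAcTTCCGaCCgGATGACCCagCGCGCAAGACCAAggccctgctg
Dnm2 exon 7, +PDGF-AA: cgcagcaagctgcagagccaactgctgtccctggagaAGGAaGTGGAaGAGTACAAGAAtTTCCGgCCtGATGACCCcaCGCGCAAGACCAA

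Identical bases under both peaks numbered 22 in the light chain pair and 48 in the dynamin pair.

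Genes of the same pathways outside the naming rule were counted in the same way. Of 39 further clathrin-coat genes 28 were bound, of which 15 had more peaks with ligand and 9 more without. Of 38 regulators and cargo receptors of COPI and COPII 29 were bound, 14 with more peaks with ligand and 9 with more without. Of 37 SNARE partners found in the annotation 14 were bound, 7 with more with ligand and 3 with more without. Beside these counts, 24.3% of all protein-coding genes were bound. Of all bound genes, 50.6% had more peaks with ligand and 26.7% more without. In each of the 3 lists the share of bound genes with more peaks with ligand lay close to that of all bound genes. The largest gain was that of Fnbp1, a membrane-bending protein of endocytosis, which had 3 peaks without ligand, 1 of them coding, and 7 with ligand, all coding.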

How the data were processed

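According to the methods, the authors removed adapters, collapsed reads by molecular identifier, discarded reads that matched repetitive elements, aligned the others with STAR, used omniCLIP to call peaks and RCAS to annotate them. Submitters' processing notes list STAR 2.7.9 and cutadapt 1.18, and both GRCm39 and GRCm38 as builds, of which the methods name GRCm39. The deposited files hold peak intervals, each a position and a gene name with no score, height or count, called once per condition. The deposited lists of peaks unique to a condition were not needed. Each interval was counted once, under the first gene listed, leaving 6396 of 6607 and 8384 of 8623 rows. No coat gene interval was repeated, and the caller's own peak name held the same gene for each. Discarding repeat reads can lower the number of peaks on CA or GA repeats. For untreated Srsf3 replicate 1 the paper reports the same number of reads before and after this step. The other libraries it lists had fewer afterwards. Whether this affected the peaks on repeats was not tested. Peak edges lie 1 nt after exon edges in genome coordinates, and intervals are printed as deposited, except that peaks on both sides of a junction were trimmed to the exon where their bases are given.

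Peaks were placed with GENCODE M39 on GRCm39. A base counted as CDS if it was coding in any transcript, otherwise as UTR, then as non-coding exon, then as intron, and a peak took the region of most of its bases. Exons were numbered in the transcript whose CDS was longest. Overlaps needed 1 nt on the same strand. Shares carry Wilson 95% intervals, which treat peaks as independent and cover counting error only. Paralog exons were aligned globally, with lengths within 1.35-fold. No test was possible with 1 list per condition. The functions were tested on simulated data. Python 3.11.15, pysam 0.24.0 and scipy 1.17.1 were used.

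Named genes had 4 or more peaks in all, a difference of 2 or more, a peak outside CDS, a CA run, or a group of 5 or fewer bound genes, and others were named to complete a group. Members, lists and rules were chosen with earlier results of these data known. Alternatives were the caller's gene names, every row counted, peaks within 50 nt merged, CA repeats removed, peaks of at least 30 nt, an overlap of at least 50% of the shorter peak, UTRs placed before CDS, 1 transcript per gene and a shift of 1 nt. Joining peaks across junctions and leaving out Dnm3 were added after seeing the data. The widest shared site of the COPII group is not reported here.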

Additional observations from a re-analysis of the deposited data

How the results depend on the processing

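Of 162 values computed under alternatives, 150 stayed within 1.5 times the count or within the interval of the share, and 12 did not. Some could not move: the caller's names and every row counted, 16 values each, left the coat gene peaks as they were. Removing CA repeats likewise left the +PDGF-AA peaks unchanged, where 0 of 82 held a CA run. Joining peaks across junctions and leaving out Dnm3, both chosen after seeing the data, were among the settings that moved none. Joining still took the genes with more +PDGF-AA peaks from 23 to 19, and those with more -PDGF-AA peaks from 9 to 10. The region depended most on its definition. With a UTR of any transcript placed ahead of CDS, however short the overlap, the CDS share was 6.67% without and 14.6% with ligand, and the 3′ UTR share 60% and 78%. The 5′ UTR share without ligand was 0% among peaks of at least 30 nt, and the 3′ UTR share was 0% with 1 transcript per gene. With intervals moved back by 1 nt, 18.8% and 22.2% of peak edges lay on an exon edge, against 1.25% and 2.08% as deposited. The hexamer CACACA was in 15% of -PDGF-AA peaks, 7.27% without tandem CA repeats and 0% of CDS peaks. Tandem CA runs were in 0% of peaks once removed and in 0% of CDS peaks.

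No paired analysis was possible because peaks were called once per condition and the lists carry no replicate, so no replicate was left out in turn either. The depth behind each peak is unknown, and a gene without a peak was not necessarily unbound.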
